A study of Mus musculus with 24 samples.

Results

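The 9 genes described here carry iron into the cell, store it, let it out and sense it. They were taken by name from a table of 55487 mouse genes, and all 9 passed the filter on low counts that left 15401 genes to be tested. *Tfrc*, *Steap3* and *Slc11a2* serve uptake, *Fth1*, *Ftl1* and *Ncoa4* serve storage and its turnover, *Slc40a1* serves release, and *Aco1* and *Ireb2* encode both iron regulatory proteins. The series asked how the loss of *Tfeb* and *Tfe3*, which encode transcription factors of lysosomal genes, changes the response of mouse embryonic fibroblasts (MEFs) to 2 drugs. Messenger RNA was sequenced from WT and *tfeb tfe3* DKO MEFs, 4 libraries per group in 6 groups. Vehicle groups received DMSO (0.1%), and the others received torin1 (100 nM), an inhibitor of the kinase MTOR, or MK-8722 (10 uM), an activator of the kinase AMPK. The doses are those named for this experiment, and the length of treatment before sequencing is not given in the sources used here. Within each group the libraries came from different passages of the cells, 7, 8, 9 and 11 for WT and 8, 9, 10 and 11 for DKO. Because no more than 1 line per genotype is named, genotype and line cannot be told apart, and the p-values measure the spread between passages of a line.

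Cells take up most of their iron bound to transferrin, which enters with its receptor into endosomes, where the iron is reduced and carried across the membrane. Ferritin shells hold the surplus, and the receptor NCOA4 delivers ferritin to lysosomes so that its iron can be reused. When iron is scarce, the iron regulatory proteins bind a hairpin, the iron-responsive element, which blocks translation when it lies ahead of the coding sequence and protects the mRNA from decay when it lies behind it.

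The hairpins are shown first because they divide the members by the side of the coding sequence on which they lie. GENCODE M21 transcripts on GRCm38 were searched on the sense strand for a C, 5 bases, the loop CAGTG with 1 more base, and 5 bases that can pair with the 5 before the loop, G with T included. This form was present in 890 of 141767 transcripts (0.628%) and in 4 of the 9 members. The mRNAs of *Fth1*, *Ftl1* and *Slc40a1* held 1 match each, in the 5′ UTR, and that of *Tfrc* held 4, all in the 3′ UTR. A looser form with 1 unpaired base after the loop, tried after the first search found none in *Slc11a2*, was added, and either form was present in 2774 transcripts (1.96%). It gave 1 match in *Slc11a2*, in the 3′ UTR of the transcript *Slc11a2-205*. No match to either form was found in *Steap3*, *Ncoa4*, *Aco1* or *Ireb2*, which says only that these letters are not there. Each sequence below is written as DNA from 5′ to 3′ with 6 bases on each side of the match, and the capitals mark the 6 bases of the loop.
Fth1, 5′ UTR, chr19:9982738-9982754, plus strand: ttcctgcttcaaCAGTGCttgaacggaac
Ftl1, 5′ UTR, chr7:45459785-45459801, minus strand: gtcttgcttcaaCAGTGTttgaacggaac
Slc40a1, 5′ UTR, chr1:45925471-45925487, minus strand: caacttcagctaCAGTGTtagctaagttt
Tfrc, 3′ UTR, chr16:32631225-32631241, plus strand: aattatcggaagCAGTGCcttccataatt
Tfrc, 3′ UTR, chr16:32631604-32631620, plus strand: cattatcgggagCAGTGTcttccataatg
Tfrc, 3′ UTR, chr16:32631669-32631685, plus strand: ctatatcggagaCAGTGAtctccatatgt
Tfrc, 3′ UTR, chr16:32631716-32631732, plus strand: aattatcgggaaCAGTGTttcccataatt
Slc11a2, 3′ UTR, chr15:100395158-100395175, minus strand: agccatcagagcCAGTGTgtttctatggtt

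The libraries held 24668921 to 33332562 estimated counts, and RNA integrity numbers ran from 7.9 to 9.9. *Tfeb* stood at 22.95 ± 1.74 CPM (SD, n = 4; CPM is the count scaled to the library's total) in WT and 2.25 ± 0.289 CPM in DKO cells under DMSO, a log2 difference of -3.35. *Tfe3* mRNA was not lower in DKO cells (log2 difference 0.04), so its level does not check the labels. All 9 fibroblast markers were detected in WT libraries, with *Vim* at 2070 to 3550 CPM, while *Thy1* was between 0 and 4.52 CPM over all libraries. In DKO cells *Thy1* was at 0 in every library under DMSO and torin1 and below 1 CPM under MK-8722. Macrophage and erythroid markers stayed below 1 CPM in every library, and *Adgre1* was at 0. The 4 epithelial markers, led by *Krt8*, summed to 2.77 to 4.58 CPM in WT and 2.99 to 4.86 CPM in DKO cells under DMSO and to 5.54 to 7.46 CPM and 9.87 to 14.5 CPM under torin1. Under MK-8722 they summed to 3.81 to 5.15 CPM in WT and 5.99 to 11.2 CPM in DKO cells. The 3 endothelial markers summed to 0.17 to 0.369 CPM in WT cells under DMSO, 0.635 to 1.1 CPM under torin1 and 0.896 to 1.31 CPM under MK-8722, and stayed at or below 0.308 CPM in DKO cells. The part of these differences in the drug responses below was not tested.

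CPM values were scaled by TMM, edgeR's correction for composition. A gene was called when edgeR's quasi-likelihood test gave a Benjamini-Hochberg adjusted p under 0.05 over all tested genes and the fold change was at least 1.2, the thresholds the study states. Under torin1, 2 members were called higher and 3 lower in WT MEFs, where 26.6% of all tested genes were called higher and 20.5% lower. In DKO MEFs torin1 gave 0 higher and 5 lower members, with 23% of all genes higher and 20.2% lower. MK-8722 gave 2 higher and 1 lower in WT MEFs (10.3% and 5.87% of all genes) and 0 higher and 1 lower in DKO MEFs (5.47% and 3.21%). With shares of this size among all genes and 9 members, the results below rest on single genes. Within a genotype, torin1 and MK-8722 have their DMSO controls in common. Since the values are shares of each library's mRNA, fewer cells of a type and less RNA per cell cannot be told apart.

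**Figure D1:**
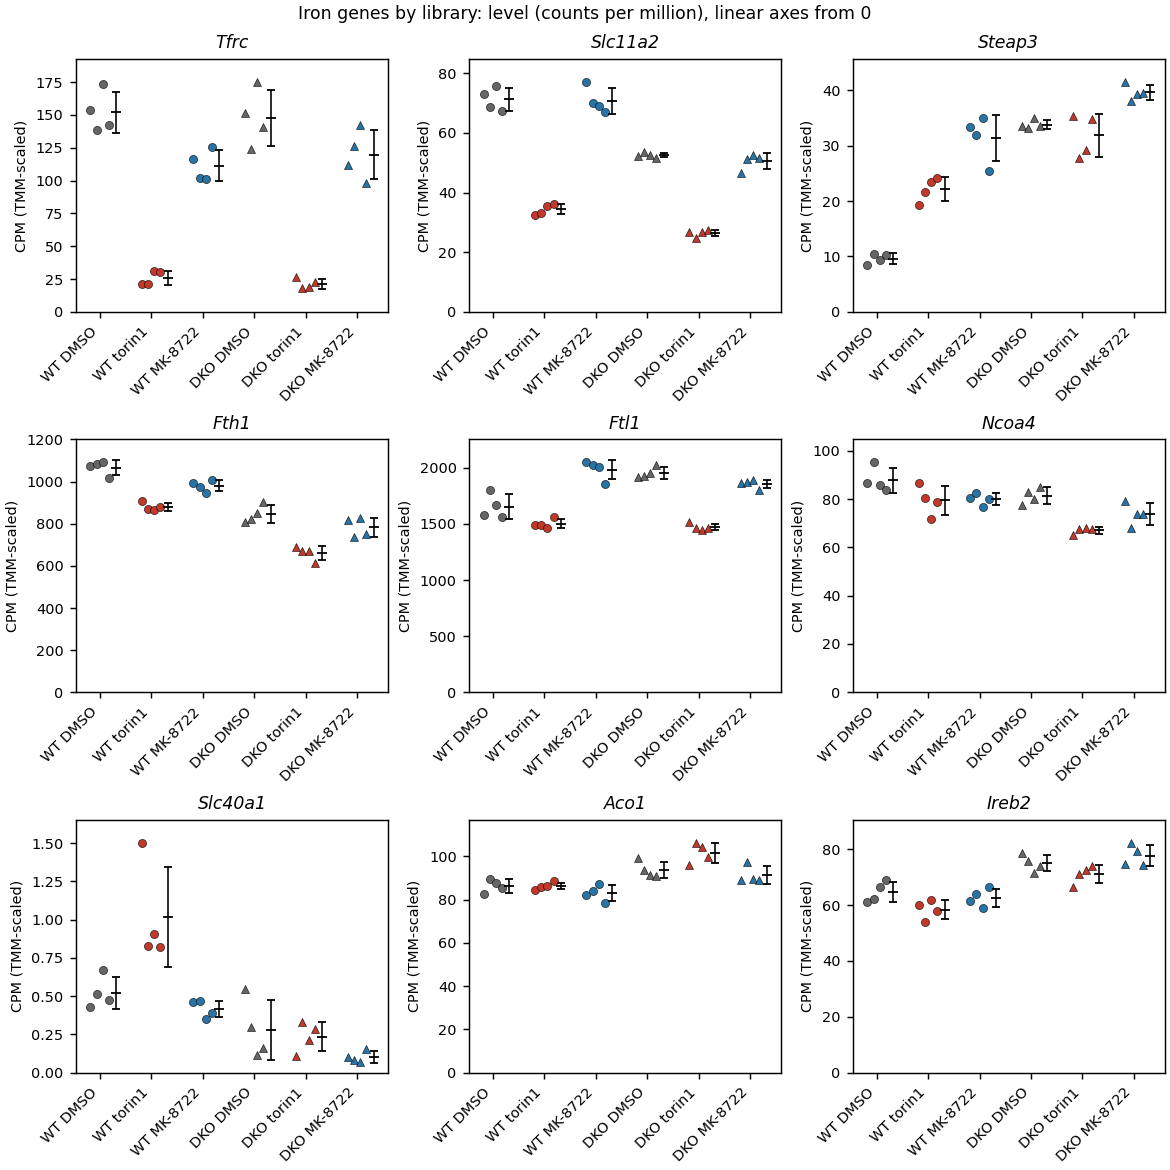
Level of each iron gene in every library in CPM, on linear axes that start at 0 and differ between panels. Circles are WT and triangles DKO libraries, gray is DMSO, red torin1 and blue MK-8722, and the bar beside each group is the mean ± SD of 4 libraries. *Tfrc* and *Slc11a2* lie far lower in both torin1 groups, and *Steap3* lies lowest in WT cells under DMSO.

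Per transcript length, the ferritins stood far above the rest. In WT cells under DMSO the level was 3162 ± 197 TPM (a share of the library scaled for transcript length) for *Ftl1* and 2523 ± 78.4 TPM for *Fth1*. *Tfrc* followed at 65.3 TPM, *Ncoa4* at 54.5, *Slc11a2* at 50.6, *Aco1* at 38.1 and *Ireb2* at 20.3 TPM. *Steap3* had 5.45 ± 0.605 TPM and *Slc40a1* 0.241 ± 0.0489 TPM.

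*Tfrc* (chr16:32608920-32632794, plus strand) encodes the transferrin receptor. It showed the largest torin1 response of the 9 members in both genotypes. In WT cells the DMSO libraries held 154, 139, 173 and 142 CPM and the torin1 libraries 21.6, 21.4, 31.4 and 30.1 CPM. In DKO cells the corresponding values were 151, 124, 175 and 141 CPM under DMSO and 26.4, 17.9, 19.1 and 22.6 CPM under torin1. Every torin1 library lay far below every DMSO library, in both genotypes. The fall was 5.83-fold in WT (log2 fold change -2.54, SE 0.149, adjusted p = 2.03e-12 in edgeR's quasi-likelihood test) and 6.87-fold in DKO cells (log2 fold change -2.78, SE 0.152, adjusted p = 7.67e-13). The difference between these responses was -0.24 on the log2 scale with a 95% confidence interval of -0.66 to 0.18, and did not pass the test (adjusted p = 0.499 by edgeR).

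MK-8722 libraries lay between those of DMSO and torin1. They held 116, 101.6, 101.3 and 126 CPM in WT and 112, 126, 142 and 98.5 CPM in DKO cells. In WT the ranges did not meet those of DMSO, whereas in DKO cells they overlapped. Set side by side by passage, each DKO library under MK-8722 lay below the DMSO library of the same passage. DMSO and MK-8722 libraries held 124 and 98.5 CPM at passage 8 and 141 and 112 CPM at passage 9. At passage 10 they held 175 and 142 CPM, and at passage 11 151 and 126 CPM. The fit did not pair libraries by passage, so this pairing was not tested. *Tfrc* fell by 0.45 on the log2 scale in WT (SE 0.14, edgeR adjusted p = 0.0158). This call was lost without WT DMSO replicate 3 (log2 fold change -0.39, edgeR adjusted p = 0.0565) or WT MK-8722 replicate 3 (-0.41, 0.0504). In DKO cells the value was -0.30 (edgeR adjusted p = 0.134), and the difference of 0.15 between the genotypes' responses had a 95% confidence interval of -0.26 to 0.56. Between the genotypes under DMSO, *Tfrc* differed by -0.04 (95% confidence interval -0.33 to 0.25).

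The *Tfrc* hairpins printed above lie in the last exon of *Tfrc-201* (4890 bases), and the shorter coding transcript *Tfrc-202* (1860 bases) ends ahead of them. *Tfrc-201* went from 34.7 ± 3.82 to 6.03 ± 1.72 TPM under torin1 in WT cells, a log2 fold change of -2.63 (SE 0.177). *Tfrc-202* went from 19.7 ± 2.8 to 3.8 ± 0.391 TPM, a log2 fold change of -2.48 (SE 0.157). In DKO cells the torin1 log2 fold changes were -2.78 (SE 0.179) and -2.49 (SE 0.158). A *Tfrc* transcript annotated as a retained intron also holds the 4 hairpins and changed by -2.30 (SE 0.204) in WT and -3.14 (SE 0.223) in DKO cells. The differences between the transcripts were not tested, and salmon splits shared reads between them by estimation.

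*Slc11a2* (chr15:100387898-100425072, minus strand) encodes DMT1, the transporter that carries iron out of endosomes. Torin1 lowered it in both genotypes. WT libraries held 73.1, 68.8, 75.7 and 67.3 CPM under DMSO and 32.6, 33.3, 35.6 and 36.1 CPM under torin1. DKO libraries held 52.3, 53.5, 52.7 and 51.8 CPM under DMSO and 26.8, 24.7, 26.9 and 27.3 CPM under torin1. The groups stood apart with room to spare. The log2 fold change was -1.05 (SE 0.0499, edgeR adjusted p = 7.61e-14) in WT and -0.99 (SE 0.0507, edgeR adjusted p = 2.94e-13) in DKO cells, and the difference of 0.06 had a 95% confidence interval of -0.09 to 0.21.

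Under MK-8722 *Slc11a2* held 67.1 to 77.1 CPM in WT and 46.5 to 52.6 CPM in DKO cells. The log2 fold changes were -0.01 (95% confidence interval -0.11 to 0.09) and -0.06 (-0.16 to 0.04), neither of them called. *Slc11a2* was lower in DKO than in WT cells under all 3 treatments, by -0.44 under DMSO, -0.38 under torin1 and -0.49 under MK-8722 on the log2 scale, each called by edgeR. With an offset for transcript length the torin1 value became -0.21 and its call was lost (edgeR adjusted p = 0.062).

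The estimated levels of 2 *Slc11a2* transcripts are given side by side. *Slc11a2-205* ends in the exon chr15:100392563-100395323 and carries the hairpin printed above, and *Slc11a2-201* ends in a separate exon, chr15:100387898-100389161, with no match. In WT cells torin1 took *Slc11a2-205* from 15.8 ± 0.897 to 7.38 ± 0.723 TPM and *Slc11a2-201* from 10.2 ± 0.461 to 6.33 ± 0.285 TPM. The whole gene held 50.6 TPM under DMSO and 27 TPM under torin1, so much of the estimate was assigned to its other transcripts. The log2 ratio of the first to the second was 0.638, 0.626, 0.647 and 0.606 under DMSO and 0.157, 0.142, 0.273 and 0.298 under torin1. It lay higher in every DMSO library than in any torin1 library.

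The pair was chosen after its values were seen, so the ratio is given as a description, with no test. The ratio differed by -0.41 between torin1 and DMSO in WT and by -0.71 in DKO cells, by -0.43 between MK-8722 and DMSO in WT cells, and by -0.59 between DKO and WT cells under DMSO. In each of these 4 the ranges of the libraries stood apart. For MK-8722 in DKO cells the difference was -0.29 and the ranges overlapped. In the edgeR fit of transcripts, MK-8722 in WT cells left *Slc11a2-205* uncalled (log2 fold change -0.15) and raised *Slc11a2-201* by 0.27 (adjusted p = 0.0319). That call was lost without a filter on low counts (adjusted p = 0.0918 by edgeR).

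**Figure D2:**
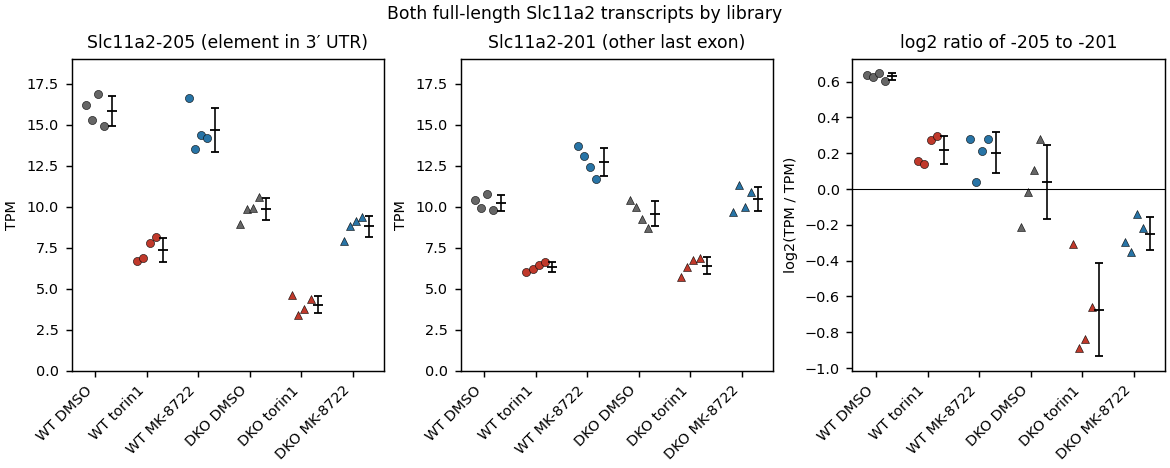
Estimated level in TPM of *Slc11a2-205* and *Slc11a2-201* in every library and the log2 ratio of the first to the second, with symbols as in the plot of levels and bars of mean ± SD (n = 4). Torin1 lowered both transcripts, and the ratio was highest, 0.606 to 0.647, in the WT libraries under DMSO.

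*Steap3* (chr1:120190757-120272705, minus strand) encodes the endosomal reductase that turns ferric into ferrous iron ahead of its export by DMT1. It rose with both drugs in WT cells and was high without them in DKO cells. WT libraries held 8.39, 10.4, 9.41 and 10.3 CPM under DMSO, 19.3, 21.6, 23.5 and 24.2 CPM under torin1 and 33.4, 31.9, 34.9 and 25.3 CPM under MK-8722. DKO libraries held 33.5, 33.1, 34.9 and 33.5 CPM under DMSO, 35.4, 27.8, 29.2 and 34.9 CPM under torin1 and 41.5, 38.1, 39.3 and 39.6 CPM under MK-8722. Every other library lay above the highest WT library under DMSO, and the WT MK-8722 libraries reached the range of the untreated DKO libraries.

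In WT cells *Steap3* rose 2.3-fold under torin1 (log2 fold change 1.203, SE 0.0971, edgeR adjusted p = 3.5e-10) and 3.26-fold under MK-8722 (log2 fold change 1.71, SE 0.0969, edgeR adjusted p = 6.03e-12). In DKO cells the log2 fold changes were -0.08 under torin1 (95% confidence interval -0.27 to 0.10) and 0.23 under MK-8722 (0.04 to 0.42), and neither was called, though the MK-8722 libraries all lay above those of DMSO. The response was smaller in DKO than in WT cells by 1.29 on the log2 scale for torin1 (difference -1.29, SE 0.133, edgeR adjusted p = 3.75e-07) and by 1.48 for MK-8722 (difference -1.48, SE 0.132, edgeR adjusted p = 5.06e-08). For torin1, 0 members had a higher and 2 a lower response in DKO cells (4.68% and 6.33% of all genes), and for MK-8722 the members were also 0 and 2 (1.42% and 4.08%). The 2 were *Steap3* and *Ftl1* each time.

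The difference in response came with a difference in starting level. *Steap3* was 3.51-fold higher in DKO than in WT cells under DMSO (log2 difference 1.81, SE 0.0971, edgeR adjusted p = 2.37e-13), 1.44-fold higher under torin1 and 1.26-fold higher under MK-8722. The last call was lost without WT MK-8722 replicate 4 (log2 difference 0.24, below the fold threshold). All 5 annotated *Steap3* transcripts were tested, and all 5 were called higher in DKO than in WT cells under DMSO, by 1.16 to 3.109 on the log2 scale. The call of *Steap3-205* was lost without any of 5 libraries (WT DMSO replicate 1, 3 or 4 or DKO DMSO replicate 1 or 4, log2 differences of 2.28 to 2.73) and that of the transcript with the smallest difference without WT DMSO replicate 4 (1.06, edgeR adjusted p = 0.0506).

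**Figure D3:**
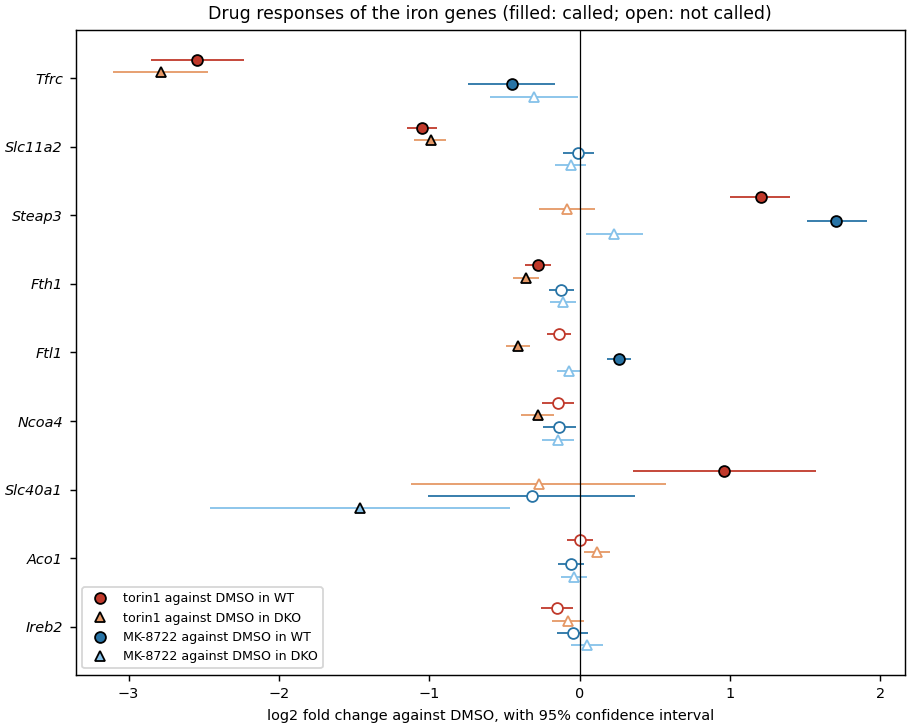
Log2 fold change of each iron gene against DMSO with its 95% confidence interval from the edgeR fit, for torin1 (red and orange) and MK-8722 (dark and light blue) in WT (circles) and DKO (triangles) cells. Filled symbols were called and open symbols were not. *Tfrc* and *Slc11a2* fell with torin1 in both genotypes, whereas *Steap3* was called higher with both drugs in WT cells and not called in DKO cells, at -0.08 with torin1 and 0.23 with MK-8722.

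*Fth1* (chr19:9980598-9985098, plus strand) encodes the ferritin heavy chain, which oxidizes iron as it enters the shell. WT libraries held 1074, 1085, 1091 and 1017 CPM under DMSO and 908, 872, 863 and 878 CPM under torin1. DKO libraries held 806, 824, 850 and 904 CPM under DMSO and 690, 669, 672 and 616 CPM under torin1. The torin1 libraries lay below those of DMSO in each genotype by a small margin. The log2 fold change was -0.28 (SE 0.0417, edgeR adjusted p = 4.68e-06) in WT and -0.36 (SE 0.0417, edgeR adjusted p = 1.45e-07) in DKO cells. Scaling by library size alone took the WT value to -0.19, under the fold threshold.

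MK-8722 moved *Fth1* by -0.12 in WT and -0.11 in DKO cells, both below the fold threshold. *Fth1* was lower in DKO than in WT cells by -0.33 under DMSO, -0.41 under torin1 and -0.32 under MK-8722 on the log2 scale, each called by edgeR.

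*Ftl1* (chr7:45457944-45459884, minus strand) encodes the ferritin light chain, which helps the iron core to form. Unlike *Fth1*, it was higher under MK-8722 in WT cells. WT libraries held 1575, 1804, 1670 and 1563 CPM under DMSO, 1494, 1488, 1464 and 1564 CPM under torin1 and 2047, 2023, 2009 and 1857 CPM under MK-8722. DKO libraries held 1916, 1922, 1951 and 2024 CPM under DMSO, 1517, 1463, 1447 and 1461 CPM under torin1 and 1863, 1877, 1887 and 1803 CPM under MK-8722. The WT libraries under MK-8722 stood above all WT libraries under DMSO, and the untreated DKO libraries did too.

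MK-8722 raised *Ftl1* by 0.26 on the log2 scale in WT cells (SE 0.0384, edgeR adjusted p = 1.37e-05), a fold change of 1.2 that sits on the threshold and fell under it when any of 15 libraries was left out. In DKO cells the value was -0.07, not called. Torin1 gave -0.14 in WT (below the fold threshold) and lowered *Ftl1* by 0.41 in DKO cells (log2 fold change -0.41, SE 0.0384, edgeR adjusted p = 4.77e-09). The response was lower in DKO than in WT cells by -0.34 for MK-8722 (SE 0.0542, edgeR adjusted p = 0.000209) and by -0.27 for torin1 (SE 0.0542, edgeR adjusted p = 0.00137). The torin1 difference, too, sat on the fold threshold and fell under it without any of 15 libraries. Under DMSO *Ftl1* was higher in DKO than in WT cells by 0.24, below the fold threshold.

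Copies of the ferritin genes took few counts. Genes named as *Ftl1* copies held 2.96% of the counts of their family, and those named as *Fth1* copies 0.00304%. *Ncoa4* (chr14:32159865-32179855, plus strand), which encodes the receptor that takes ferritin to lysosomes, has a pseudogene with 4.34% of their joint counts, and reads shared with it remain uncertain. *Ncoa4* held 83.7 to 95.2 CPM in WT and 77.4 to 85.2 CPM in DKO cells under DMSO. Torin1 libraries held 71.9 to 86.6 CPM in WT, which overlapped DMSO, and 65.0 to 67.9 CPM in DKO cells, which did not. The log2 fold change of torin1 was -0.14 in WT, below the fold threshold, and -0.28 in DKO cells (SE 0.0524, edgeR adjusted p = 7.78e-05). The DKO call ended when DKO DMSO replicate 4 or DKO torin1 replicate 1 was left out, at -0.26 in both cases. With MK-8722 the values were -0.14 in each genotype, not called.

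*Slc40a1* (chr1:45908068-45926523, minus strand) encodes ferroportin, the exporter of cellular iron, and was near the limit of detection. WT libraries held 14, 17, 18 and 14 counts under DMSO, 46, 26, 29 and 23 under torin1 and 12, 13, 11 and 10 under MK-8722. DKO libraries held 16, 7, 3 and 4 counts under DMSO, 3, 9, 6 and 8 under torin1 and 3, 2, 2 and 4 under MK-8722. The torin1 libraries of WT cells were the highest of all 24 in counts and CPM. In TPM, DKO torin1 replicate 3 stood highest at 0.82, above WT torin1 replicate 1 at 0.734. Mean TPM under DMSO was 0.241 in WT and 0.237 in DKO cells. Torin1 raised *Slc40a1* by 0.96 on the log2 scale in WT cells (95% confidence interval 0.35 to 1.57, edgeR adjusted p = 0.00692), and the call was lost without WT torin1 replicate 1 (0.68, edgeR adjusted p = 0.054) or with an offset for transcript length (0.95, edgeR adjusted p = 0.0608). In DKO cells torin1 gave -0.27 (-1.12 to 0.58), not called, and the difference between the genotypes, -1.24, did not pass (edgeR adjusted p = 0.109).

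MK-8722 gave a *Slc40a1* log2 fold change of -1.46 in DKO cells (95% confidence interval -2.46 to -0.46, edgeR adjusted p = 0.0342), which became -0.87 without DKO DMSO replicate 1 and was then no longer called (edgeR adjusted p = 0.288). Leaving out DKO DMSO replicate 2 or DKO MK-8722 replicate 1, 2 or 3 also ended this call, with edgeR adjusted p between 0.0631 and 0.0922. *Slc40a1* was lower in DKO than in WT cells by -2.08 under torin1 (SE 0.337, edgeR adjusted p = 1.01e-05) and -1.99 under MK-8722 (SE 0.45, edgeR adjusted p = 0.00053) on the log2 scale. With an offset for transcript length the torin1 difference became -1.03 and was no longer called (edgeR adjusted p = 0.0922). Under DMSO the difference of -0.85 was called (edgeR adjusted p = 0.0433) but was lost when any of 6 libraries was left out.

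*Aco1* (chr4:40143081-40198338, plus strand) encodes IRP1, which works as an aconitase when it holds an iron-sulphur cluster and binds hairpins when it does not. It held 78.6 to 89.7 CPM over the WT libraries and 89.1 to 106 CPM over the DKO libraries, and was called in none of the 11 comparisons. DKO cells lay above WT cells by 0.12 under DMSO, 0.24 under torin1 and 0.14 under MK-8722 on the log2 scale. Each value was below the fold threshold (edgeR adjusted p = 0.015, 2.98e-05 and 0.00668). Without DKO torin1 replicate 1 the torin1 value was 0.27 and was called. In WT cells the torin1 log2 fold change was 0.00 (95% confidence interval -0.09 to 0.09). *Ireb2* (chr9:54863789-54912530, plus strand) encodes IRP2, which is degraded when iron is plentiful. It held 53.8 to 68.9 CPM over the WT libraries and 66.5 to 82.3 CPM over the DKO libraries, and no drug response was called. *Ireb2* was higher in DKO than in WT cells by 0.28 under torin1 (edgeR adjusted p = 3.68e-05) and by 0.31 under MK-8722 (edgeR adjusted p = 1.26e-05). Without WT torin1 replicate 2 the first value was 0.25, under the fold threshold, and scaling by library size alone took both under it (0.16 and 0.24).

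Set between the genotypes as a whole, 1 member was called higher and 3 lower in DKO than in WT cells under DMSO (23.5% and 24.6% of all genes). Under torin1 2 were higher and 3 lower (24% and 27.8%), and under MK-8722 also 2 and 3 (23.3% and 25.4%). Scaling by library size alone made these 1 higher and 5 lower under torin1 and 0 higher and 3 lower under MK-8722, and moved the median of all genes by -0.128 on the log2 scale under torin1. Between the drugs, whose doses differ, torin1 libraries had 1 member higher and 4 lower than MK-8722 libraries in WT (24.9% and 20% of all genes) and also in DKO cells (21.1% and 19.3%). *Tfrc* made the widest gap, -2.09 in WT and -2.48 in DKO cells on the log2 scale.

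Across the 24 libraries *Tfrc* and *Slc11a2* followed each other, with Pearson's r of 0.903 for log2 CPM and 0.978 after centring within genotype. These libraries share their treatment groups, so the value describes group differences. The genes with the pattern nearest to that of *Tfrc* among all tested were *Uqcr11* and *Rnf145* (r = 0.978 for each, n = 24), and nearest to *Slc11a2* were *Traf7* and *Slc38a2* (0.982 for each). *Steap3* was most like *Rab22a* (0.974) and *Atp6ap2* (0.972), *Fth1* like *Desi1* (0.971) and *Impdh1* (0.966), and *Ftl1* like *Clcn5* (0.943) and *Ralb* (0.935). For *Ncoa4*, *Slc40a1*, *Aco1* and *Ireb2* the highest r was 0.882 with *Zcchc17*, 0.897 with *Zfp791*, 0.931 with *Tubgcp4* and 0.94 with *Map2k4*. After centring within genotype these pairs had r of 0.845, 0.719, 0.83 and 0.769. Other genes were then nearest, *Farp2* (0.876), *Erbin* (0.812), *Ppp1r10* (0.899) and *Gpbp1* (0.841), so part of the likeness is the gap between the genotypes.

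Promoters were read from RefSeq windows on GRCm38.p6 that reach from 250 bases before to 50 bases after a gene's start, which matched 7 of the 9 members in 14 windows. *Slc11a2* and *Slc40a1* had no entry. On either strand, CACGTG, the core that TFEB and TFE3 bind, was in 0 of the 14 windows and in 2349 of all 32851 windows (7.15%). The longer GTCACGTG, which contains it, was in 0 and in 738 windows (2.25%). With shares of this size and 14 windows from 7 genes, these values say only that the letters are not in these windows. Sites outside the windows were not searched. The paired hairpin form was in 0 of the 14 and 26 of all windows on the sense strand. The hairpins of *Fth1-201* and *Ftl1-201* begin at bases 93 and 84 of the transcript, and those of *Tfrc* lie in its 3′ UTR. Windows that end 50 bases after these starts do not reach them, so this 0 is not read as a result.

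Of 63 member transcripts in the deposited files, 47 were tested. Torin1 called 3 higher and 9 lower in WT (10.7% and 12.1% of all tested transcripts) and 0 higher and 16 lower in DKO cells (11% and 11.3%). In WT the 3 were from *Steap3* and the 9 from *Tfrc* (4), *Slc11a2* (3) and *Fth1* (2). The 16 in DKO cells came from *Fth1* (5), *Ftl1* (5), *Tfrc* (4) and *Slc11a2* (2). Transcripts of a gene share reads, so they are not separate results. MK-8722 called 7 higher and 1 lower in WT cells (3.7% and 1.72%), 4 of the 7 from *Steap3*, 2 from *Ftl1* and 1 from *Slc11a2*. In DKO cells MK-8722 called 0 of the 47 by edgeR (0.975% higher and 0.582% lower of all). Between the genotypes under DMSO, 5 were higher and 5 lower in DKO cells (12% and 12.8%).

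Other genes of iron handling were followed as lists of 88 names, of which 85 were in the table and 73 were tested. Torin1 called 17 higher and 27 lower in WT MEFs (26.6% and 20.5% of all tested genes), with a median log2 fold change of -0.11 against 0.05 over all tested genes. MK-8722 called 9 higher and 3 lower in WT cells (10.3% and 5.87% of all genes, with medians of -0.04 for the lists and -0.01 for all genes). In DKO MEFs torin1 called 12 higher and 31 lower (23% and 20.2% of all genes), and MK-8722 3 higher and 4 lower (5.47% and 3.21%).

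Among 11 tested genes of uptake, reduction and other import, torin1 called 5 higher and 3 lower (26.6% and 20.5% of all genes) and MK-8722 2 higher and 0 lower (10.3% and 5.87%) in WT cells. *Mcoln1*, a channel that lets iron out of lysosomes, went from 38.9 ± 0.421 CPM under DMSO to 104 ± 5.59 CPM under torin1 and 95.04 ± 8.05 CPM under MK-8722. Its log2 fold changes were 1.42 and 1.29 in WT and 0.57 and 0.37 in DKO cells, and the responses in DKO cells were smaller by differences of -0.85 (edgeR adjusted p = 2.77e-07) and -0.92 (edgeR adjusted p = 8.27e-08). *Slc39a8*, a metal importer, rose by 1.23 with torin1 in WT cells from 0.719 CPM, while its mean was below 0.03 CPM in each DKO group.

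Of 25 tested genes of mitochondrial iron and iron-sulphur clusters, torin1 called 3 higher and 11 lower in WT (26.6% and 20.5% of all genes) and 2 higher and 14 lower in DKO cells (23% and 20.2%). *Glrx5*, which passes clusters on, fell by 0.93 on the log2 scale in WT cells (57.8 to 30.3 CPM), while *Hscb*, a co-chaperone of cluster assembly, rose by 1.14 (5.02 to 11.0 CPM). MK-8722 raised *Slc25a37*, the mitochondrial iron importer, by 0.68 in WT cells, with a difference of -0.48 in the DKO response (edgeR adjusted p = 0.0444).

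Of 18 tested heme genes, torin1 called 5 higher and 7 lower (26.6% and 20.5% of all genes) and MK-8722 2 higher and 0 lower (10.3% and 5.87%) in WT cells. *Flvcr2*, a transporter of the heme group, rose by 2.76 with torin1 in WT cells, from a mean of 0.0974 CPM to 0.689 CPM. *Hmox1*, which breaks heme down and frees its iron, rose by 0.50 with MK-8722 in WT cells and differed in the DKO response by -0.59 (edgeR adjusted p = 0.00826). Here, too, the starting levels differed. The *Hmox1* mean was 48.1 CPM in WT and 86.0 CPM in DKO cells under DMSO, and 68.0 CPM in WT cells under MK-8722. Under torin1 the means were 30.6 CPM in WT and 43.9 CPM in DKO cells.

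Among 11 genes of cytosolic iron chaperones and regulation of the iron regulatory proteins, torin1 called 1 higher and 6 lower in WT cells (26.6% and 20.5% of all genes), with *Pcbp1*, an iron chaperone that loads ferritin, at -0.60 and *Nfe2l2*, a transcription factor of ferritin genes, at -0.52. The response of *Fbxl5*, which targets IRP2 for degradation, to MK-8722 differed by -0.27 in DKO cells (edgeR adjusted p = 0.00422). Of 8 tested genes of export and systemic control, torin1 called 3 higher and 0 lower in WT cells, beside the same shares of all genes. *Neo1*, a co-receptor in hepcidin signalling, rose by 0.76 with torin1 and 0.75 with MK-8722 in WT cells, with differences of -0.56 and -0.61 in the DKO responses. These came with a difference in starting level. The *Neo1* mean under DMSO was 109 CPM in WT and 175 CPM in DKO cells. In WT cells it was 185 CPM under torin1 and 184 CPM under MK-8722. Of 4 other tested mRNAs with a described hairpin, 1 was called higher with torin1 in WT cells, *Cdc14a* by 0.44 (26.6% of all genes).

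**Figure D4:**
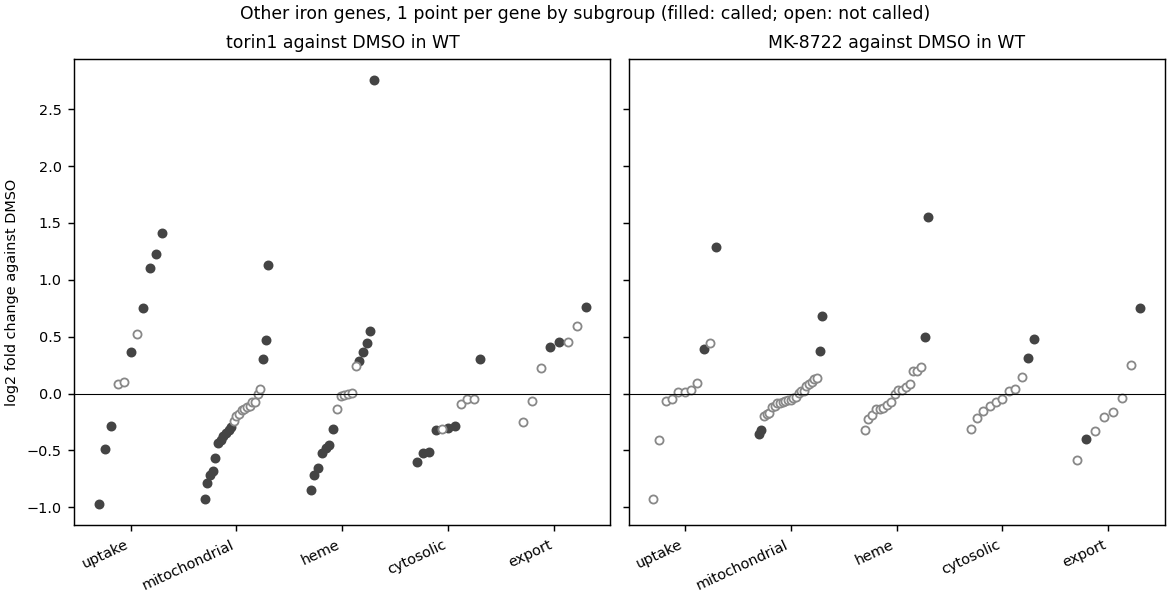
Log2 fold change against DMSO in WT MEFs of each tested gene in 5 lists of iron handling, sorted within each list, for torin1 (left) and MK-8722 (right). Filled points were called and open points were not. Torin1 called 11 of 25 mitochondrial genes lower, where 20.5% of all genes were, and most genes of each list were not called with MK-8722, which called 10.3% of all genes higher and 5.87% lower.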

How the data were processed

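Polyadenylated RNA of 24 MEF cultures was sequenced as pairs of 52 bp. The authors aligned reads with STAR to GRCm38, considered unique molecular identifiers, and deposited salmon's estimated counts per gene and per transcript, with TPM per transcript as deposited by the authors. Their batch removal was not repeated, since the labels give 1 batch. No per-sample column was left without a sample. Estimated counts were rounded, filtered with filterByExpr (minimum count 10), scaled with TMM and fitted by edgeR 4.0.16 (legacy quasi-likelihood) with 6 group means and 18 residual degrees of freedom in R 4.3.3. Transcripts were fitted in the same way. Of 55487 gene identifiers, 55227 matched GENCODE M21. The script was tested on simulated data. Totals of 24668921 to 33332562 counts leave genes such as *Slc40a1*, with 2 to 46 counts, imprecise.

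The members and lists were chosen with earlier results of these data known. All members are named, and for each other list at most 2 called genes with the largest change in each of torin1 and MK-8722 against DMSO in WT cells and both differences in response. The alternatives were other filters, scalings (DESeq2 1.42.0 size factors, library size alone), tests (DESeq2, limma 3.58.1 voom, glmTreat, edgeR's newer fit), a length offset, fewer groups, blocks for replicate or passage, and leaving out libraries. Some single genes of the marker and pathway lists are not reported here.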

Additional observations from a re-analysis of the deposited data

Results flagged for a closer look

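Of 54 combinations of member and group, 3 held a library far from the other 3 by Dixon's criterion, which chance alone would flag in about 1 of 20 groups. They were *Ncoa4* in DKO torin1 replicate 1 (65 CPM against 67.5 to 67.9 CPM), *Slc40a1* in WT torin1 replicate 1 (1.5 CPM against 0.824 to 0.909 CPM) and *Aco1* in DKO MK-8722 replicate 2 (97.5 CPM against 89.1 to 89.5 CPM). Without the first, the *Ncoa4* torin1 call in DKO cells ended, and without the second, that of *Slc40a1* in WT cells ended.

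The drug response differed between the genotypes in 2 members by the test of that difference. For *Steap3* it was lower in DKO than in WT cells by -1.29 with torin1 and by -1.48 with MK-8722 (log2), and each time the WT libraries rose from a lower level under DMSO. For *Ftl1* it was lower by -0.27 for torin1 and -0.336 for MK-8722. The first of these *Ftl1* values lies on the fold threshold.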

How the results depend on the processing

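No called member changed sign under any alternative run. Uncalled values turned sign 67 times for genes and 147 times for transcripts. Of the single gene results under all alternatives, 3804 kept their side of the threshold, 30 gained and 111 lost a call. For transcripts these were 6406, 70 and 104.

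The number of members called moved by over 1.5 times as follows. The single call of MK-8722 in DKO cells, *Slc40a1*, became 0 without a filter, with 10 counts in every library (which removes the gene), with DESeq2's Wald test, limma voom, glmTreat, the length offset, only the groups compared, or without the libraries of passage 11. The 2 calls of the torin1 response difference became 1 without a filter, with DESeq2 size factors, DESeq2's Wald test or glmTreat. The 5 calls of torin1 in WT became 3 with 10 counts in every library and 8 by adjusted p alone. By adjusted p alone, DKO against WT under DMSO went from 4 to 7 and torin1 against MK-8722 in DKO from 5 to 9. With glmTreat, which tests against the fold threshold, MK-8722 in WT went from 3 to 1, DKO against WT under MK-8722 from 5 to 2, the MK-8722 response difference from 2 to 1 and torin1 against MK-8722 in DKO from 5 to 3. DKO against WT under MK-8722 went from 5 to 3 with library size alone, and under torin1 from 5 to 2 with the length offset. Called transcripts of MK-8722 in WT went from 8 to 4 without a filter. The causes were not tested. The shares of all genes called under these settings are not given beside these counts, nor beside those for libraries left out below. The moves are therefore not read as results about the members.

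Leaving out 1 library gave 4 to 5 calls for torin1 and 1 to 3 for MK-8722 in WT, and 4 to 5 and 0 to 1 in DKO cells. DKO against WT gave 3 to 4 under DMSO, 5 to 7 under torin1 and 4 to 5 under MK-8722. The response differences gave 1 to 3 for torin1 and 2 to 2 for MK-8722, and torin1 against MK-8722 gave 5 to 5 in WT and 3 to 5 in DKO cells. Transcripts gave 11 to 14 and 4 to 8 for torin1 and MK-8722 in WT, 14 to 20 and 0 to 0 in DKO cells, and 8 to 10 between genotypes.

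Replicate numbers did not pair the libraries (same-number correlations of deviations -0.414 to 0.657, over 0.1 in 13 of 60). A block for the replicate number left the counts of gene calls as they were, at 5 and 3 for torin1 and MK-8722 in WT cells, and gave 14, 9, 19, 0 and 10 transcripts. Libraries of 1 passage within a genotype correlated at 0.0221 to 0.657, over 0.1 in 17 of 24. All of these correlations were positive, with a median of 0.157 against -0.0392 for the other pairs within a genotype. The main fit did not pair libraries by passage. A block for passage changed no gene call and gave 11, 8, 17, 0 and 10 transcripts, the transcript block having been added after the data were seen. It gave each passage number the same effect in both cell lines, so pairing by passage within a line was not tested. Few counts limit *Slc40a1*.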
